A study of Mus musculus with 6 samples.

Results

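The genes described here are 33 members of the NF-kB pathway in mouse naive B cells: the DNA-binding subunits, the proteins that hold them back, the kinases and ubiquitin enzymes that release them, 2 less studied activators (Unc5cl and Lurap1) and a set of feedback targets. They were taken by name from a table of 41053 gene names, all 33 were found, and 32 passed the filter on low counts with which 13604 genes were tested. RNA from naive B cells of C57BL/6 mouse spleens was sequenced in 3 libraries of genotype TET2 Knock-Out, numbered 2, 3 and 4, and in 3 libraries of genotype TET2 Wild-Type with the same numbers. TET2 oxidizes methylated cytosines in DNA, and the comparison asks which transcripts differ in level when it is absent. The labels list no treatment and give neither the age or sex of the mice, nor the deleted part of the gene, nor whether each library came from its own mouse. The p-values therefore rest on the variation among libraries, part of which may be technical.

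NF-kB is a family of dimeric transcription factors that B cells use for survival, growth and the response to antigen, CD40 and microbial products. In resting cells the dimers are kept in the cytoplasm by IkB proteins. Signals from receptors run through TRAF adaptors and ubiquitin chains to the IkB kinase complex, which marks IkB proteins for destruction and so frees the dimers. Many of the freed dimers' targets are themselves inhibitors of the pathway, which gives it negative feedback.

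Library totals lay between 35101788 and 45401781 counts. Levels are given as CPM, counts relative to the library's TMM-scaled total, and a library's floor of 3 counts lies at 0.0679 to 0.0857 CPM. The B cell markers found in the table, 9 of 10 names, summed to between 20400 and 23800 CPM in knockout libraries and between 19260 and 20600 CPM in wild-type libraries. Of the other cell types' markers, the 10 T cell genes summed to at most 3.35 CPM, the 6 NK cell genes to at most 2.41, the 8 myeloid genes found to at most 18.2, the 10 dendritic cell genes to at most 6.43 and the 5 erythroid genes to at most 19.5 in any library. The 4 plasma cell genes found summed to between 129 and 138 CPM in knockout libraries and between 120 and 163 CPM in wild-type libraries, nearly all of it Xbp1, which B cells also use. Tet2 itself had 59.4, 64.8 and 50.0 CPM in knockout libraries 2, 3 and 4 and 74.7, 83.3 and 56.9 CPM in wild-type libraries 2, 3 and 4, and since the deleted exons are not given this level does not check the labels. Y-linked Kdm5d had 23.3, 34.2 and 34.9 CPM in the knockout libraries and at most 0.0571 CPM in wild type, and Xist had 802 to 887 CPM in knockout against 1443 to 1537 CPM in wild type, so genotype and sex composition cannot be told apart in any result below.

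Bases before an annotated start of 4 members are printed because the results turn on these genes: Unc5cl and Lurap1 were the members called between the genotypes, and Nfkbid and Tnfaip3 are feedback genes whose knockout libraries 2 and 3 lay apart from knockout library 4. Where RefSeq gives several starts, as for Nfkbid and Tnfaip3, the window with matches is shown. The sequences are from RefSeq (GRCm38.p6), 5′ to 3′ on the gene's strand, and end at the base before the start. They hold 250 bases each, and 137 for Tnfaip3, whose farther bases include 110 of an exon of another of its transcripts. Against the counted gene models, the Unc5cl window lies outside the gene, while those of Lurap1 and Nfkbid lie wholly within it, outside its exons, and so precede a start that is not the gene's outermost one. Of the full Tnfaip3 window, 247 bases lie within the gene. Capitals mark CpG dinucleotides, the sites at which DNA is methylated, in Unc5cl and Lurap1. In Nfkbid and Tnfaip3 they mark matches to the kappaB consensus, the sequence that NF-kB dimers bind, searched on both strands.
Unc5cl, chr17:48454651-48454900, plus strand: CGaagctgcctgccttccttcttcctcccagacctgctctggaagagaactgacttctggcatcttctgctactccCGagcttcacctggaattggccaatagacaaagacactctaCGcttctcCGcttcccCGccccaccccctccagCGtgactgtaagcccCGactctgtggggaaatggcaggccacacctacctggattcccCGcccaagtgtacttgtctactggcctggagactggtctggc
Lurap1, chr4:116144617-116144866, minus strand: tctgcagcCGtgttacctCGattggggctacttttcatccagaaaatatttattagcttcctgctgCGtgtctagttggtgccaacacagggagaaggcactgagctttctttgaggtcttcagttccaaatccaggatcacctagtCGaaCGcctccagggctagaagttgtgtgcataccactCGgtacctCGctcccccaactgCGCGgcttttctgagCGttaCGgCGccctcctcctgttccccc
Nfkbid, chr7:30422156-30422405, plus strand: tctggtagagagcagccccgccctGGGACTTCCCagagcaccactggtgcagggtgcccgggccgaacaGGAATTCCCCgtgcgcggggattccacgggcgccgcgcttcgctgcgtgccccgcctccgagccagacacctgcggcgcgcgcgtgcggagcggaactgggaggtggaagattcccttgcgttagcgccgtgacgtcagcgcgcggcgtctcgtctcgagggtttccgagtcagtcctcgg
Tnfaip3, chr10:19015411-19015547, minus strand: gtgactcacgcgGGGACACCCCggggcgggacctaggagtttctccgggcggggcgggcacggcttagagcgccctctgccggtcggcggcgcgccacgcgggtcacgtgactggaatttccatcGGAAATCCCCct

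The Unc5cl window held 8 CpG dinucleotides and the Lurap1 window 12, against a median of 6 (quartiles 2 and 16) over 32851 windows of 27025 genes and of 13 over the members' 39 windows. Neither window held a kappaB consensus match, which says only that these letters are not in these bases. The Nfkbid matches lie at −226 to −217 and −181 to −172 from the start, and those of Tnfaip3 at −125 to −116 and −12 to −3. RefSeq windows were found for 29 members, of which 10 (34.5%) held a match: Rel, Nfkb2, Nfkbia, Nfkbie, Nfkbid, Tnfaip3, Tnip1, Cyld, Map3k7 and Ebi3. Over all genes with a window the share was 4.46%, and over all windows 3.9%. The members were picked as pathway genes, feedback targets among them, so these shares do not compare like with like. Overlapping matches on either strand were counted as separate, and Tnip1 and Nfkb2 each had 3 in 1 window. No methylation was measured here, and a match is a description of the letters, not of binding.

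Among the 32 tested members, Unc5cl and Lurap1 were lower in knockout cells and no member was higher at an adjusted p under 0.05 (edgeR's quasi-likelihood F test, Benjamini-Hochberg adjustment over all genes tested). Among all tested genes, 55 (0.404%) passed in either direction and 30 (0.221%) were lower. The members, Unc5cl and Lurap1 included, were chosen with earlier results of these data known, so their count does not measure an excess over these shares. None of the other 30 tested members was called. DESeq2 and limma-voom each called the same 2 members lower and none higher. Of all 13604 genes tested, DESeq2 called 349 (2.57%) and limma-voom 45. At an unadjusted p under 0.05 there were 6 members, against 13.4% of all genes: Unc5cl, Lurap1, Otulin, Nfkbie, Ikbkb and Ebi3. The log2 change of knockout over wild type was positive for 16 members and negative for 16, and its median was −0.00645, beside −0.00509 over all genes tested. In 7 members every knockout library lay on 1 side of every wild-type library, above for Nfkb1, Nfkbie, Otulin and Ebi3 and below for Unc5cl, Lurap1 and Map3k7, against 18.5% of all genes.

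**Figure D1:**
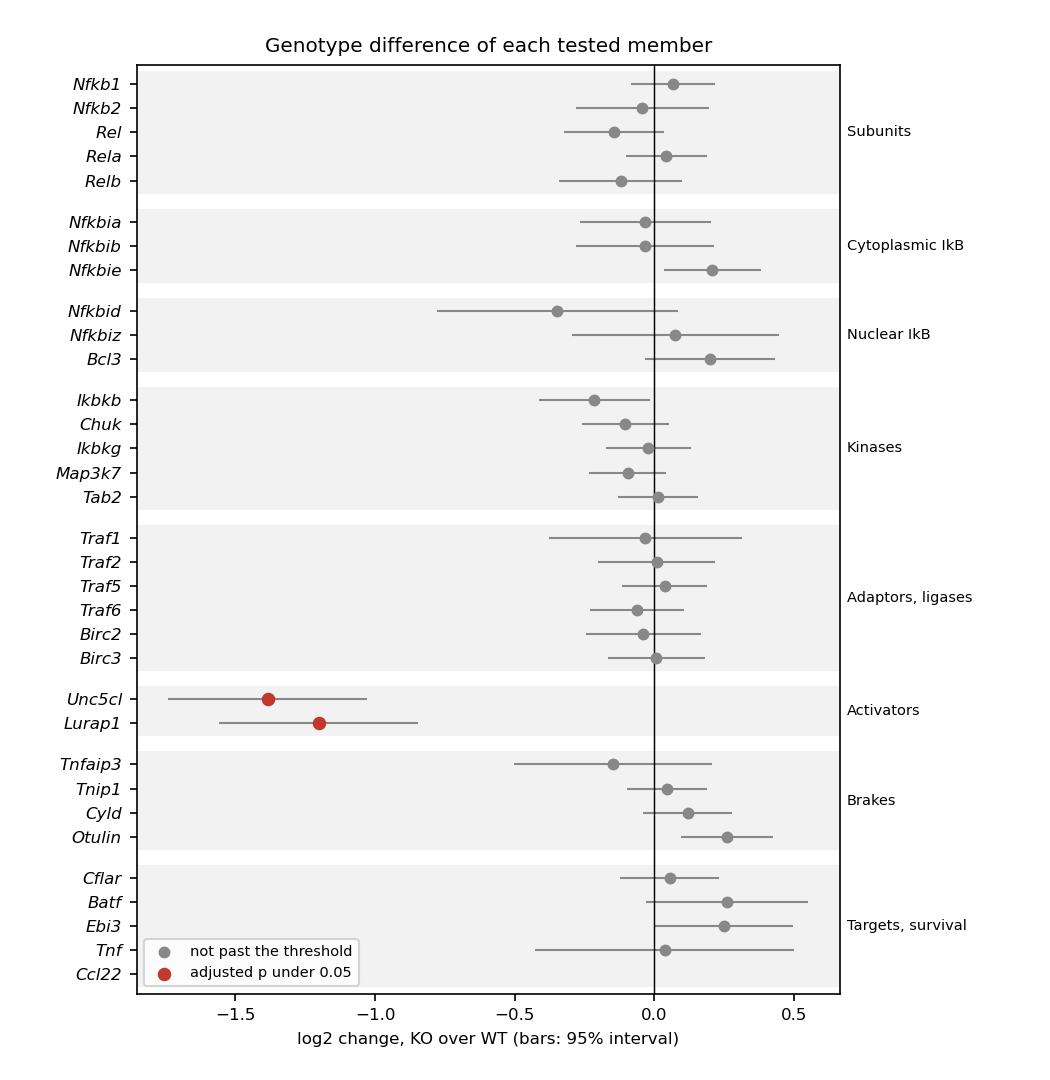
Log2 change of knockout (KO) over wild type (WT) for each member on the horizontal axis, grouped by role down the page, with bars for the 95% interval of the edgeR fit (3 libraries per genotype). Red points mark Unc5cl (−1.38) and Lurap1 (−1.20), the members past the threshold, and the row of Ccl22 is empty because it was not tested.

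The members spanned a wide range of levels once counts were divided by exon length. Nfkbia, the main cytoplasmic IkB, was the highest at 146 CPM per kilobase in knockout and 149 in wild type, followed by the subunit genes Nfkb2 (121 in knockout and 125 in wild type) and Nfkb1 (94.6 in knockout and 90.3 in wild type). Lurap1 and Unc5cl were the lowest of the tested members on this scale, at 0.608 and 0.838 CPM per kilobase in knockout and at 1.40 and 2.19 in wild type. Every other tested member lay at 7.68 CPM per kilobase or more in each library. The length used is the sum of all annotated exons of a gene, not that of 1 transcript, so annotation bears on this order. Ikbkb, with 19078 exon bases, had the highest wild-type mean of the members before that division, 520 CPM, and 27.3 CPM per kilobase after it.

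**Figure D2:**
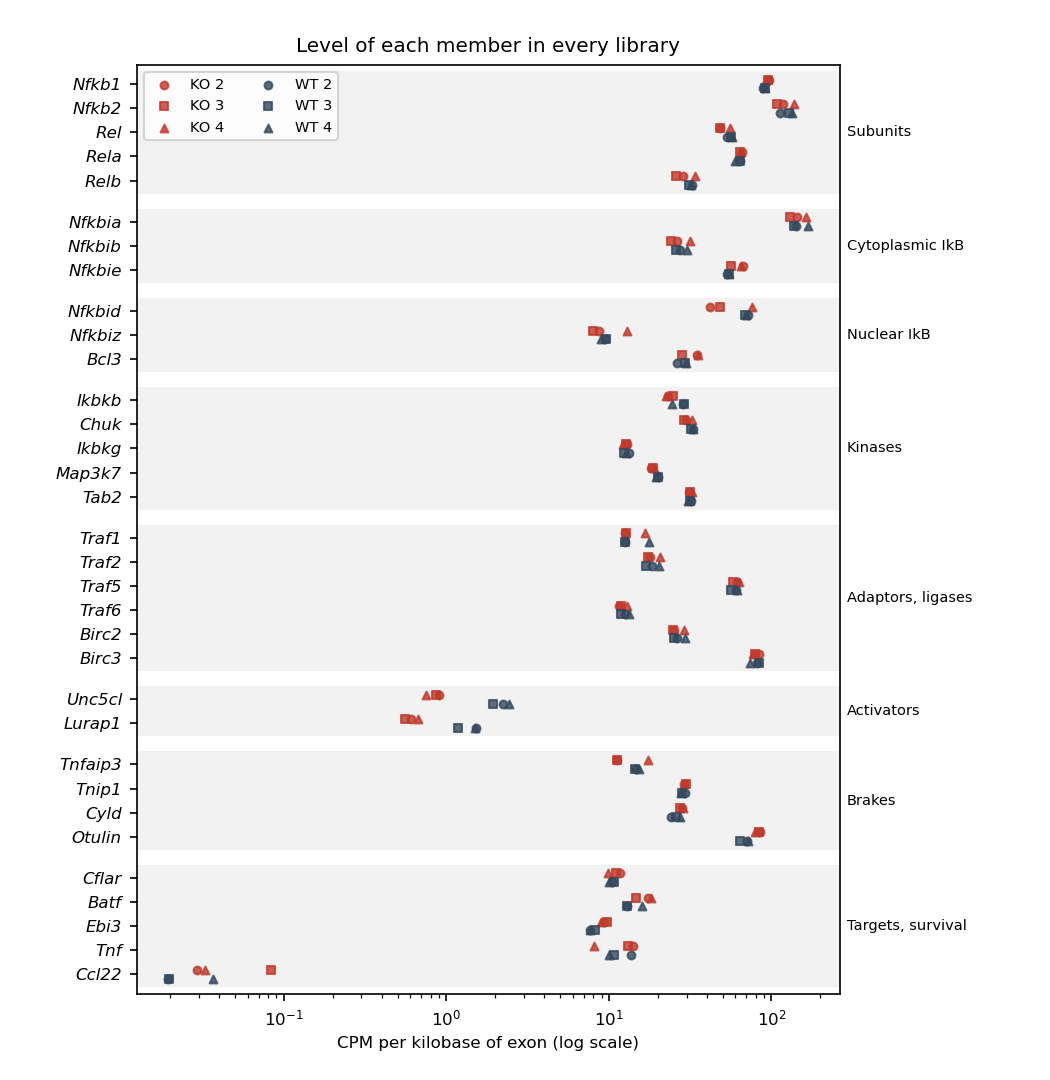
Level of each member in every library, in CPM per kilobase of exon on a log axis, with knockout (KO) points in red above wild-type (WT) points in blue and the marker shape giving the library number. Unc5cl and Lurap1 lie below the other tested members and their genotypes do not overlap, and Ccl22 lies near the floor of a few counts.

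The 5 genes of the DNA-binding subunits showed no call between the genotypes. Nfkb1, which encodes p105 and its product p50, had 462, 453 and 442 CPM in knockout libraries 2, 3 and 4 and 421, 438 and 436 CPM in wild-type libraries 2, 3 and 4. All knockout values were above all wild-type values, by a narrow margin, and the log2 change was 0.07 (SE 0.07, edgeR adjusted p = 0.694). Rel, the c-Rel subunit of mature lymphocytes, had 135, 134 and 156 CPM in knockout against 150, 158 and 161 CPM in wild type, a log2 change of −0.14 (95% interval −0.32 to 0.03). Relb, a partner of p52 in the non-canonical pathway, had 110, 99.8 and 131 CPM in knockout against 126, 121 and 124 CPM in wild type. Its knockout libraries 2 and 3 were below every wild-type library and knockout library 4 was above them. Nfkb2, which encodes p100 and p52, averaged 399 ± 50.7 CPM in knockout against 411 ± 34.3 CPM in wild type (SD, n = 3 each), and Rela, the p65 subunit, 176 ± 1.74 CPM in knockout against 171 ± 7.22 CPM in wild type. The 5 log2 changes ran from −0.14 to 0.07, with an edgeR adjusted p of at least 0.463.

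None of the 3 cytoplasmic inhibitors was called between the genotypes, and 1 had an unadjusted p under 0.05. Nfkbie, which encodes IkB-epsilon, had 162, 137 and 157 CPM in knockout against 130, 132 and 133 CPM in wild type, with no overlap. Its log2 change was 0.21 (SE 0.08, 95% interval 0.03 to 0.38), and its unadjusted p of 0.0237 did not survive adjustment (edgeR adjusted p = 0.309). Nfkbia averaged 230 ± 24.9 CPM in knockout against 235 ± 25.8 CPM in wild type, and Nfkbib, which encodes IkB-beta, 58.9 ± 8.16 CPM in knockout against 60.3 ± 4.88 CPM in wild type (SD, n = 3 each). Both had overlapping genotypes, a log2 change of −0.03 and an interval that reached no further than −0.28 to 0.21. Nfkbib shares 14.3% of its exon bases with Gm6537 on the opposite strand, and the counting used no strand.

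The nuclear IkB proteins bind NF-kB dimers on DNA and can activate or repress genes there. Nfkbid, which encodes IkBNS and is needed for B-1 cell and antibody responses in mice, had 97.8, 113.5 and 177.5 CPM in knockout libraries 2, 3 and 4. In wild-type libraries 2, 3 and 4 it had 168, 162 and 164.5 CPM. Knockout libraries 2 and 3 were well below every wild-type library and knockout library 4 was above them all, so the genotypes overlapped and the log2 change of −0.35 carried a wide interval (−0.78 to 0.08, edgeR adjusted p = 0.462). Nfkbiz, which encodes IkB-zeta, had 43.5, 39.8 and 65.1 CPM in knockout against 47.7, 48.0 and 44.97 CPM in wild type, and Nfkbiz in knockout library 4 again stood above every other library. Bcl3, a partner of p50 and p52 homodimers, had 86.5, 69.7 and 87.6 CPM in knockout against 64.8, 73.4 and 74.0 CPM in wild type. Only knockout library 3 of Bcl3 fell within the wild-type range, and the log2 change was 0.20 (SE 0.10, edgeR adjusted p = 0.436).

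Of the kinase genes, Ikbkb, the catalytic subunit of the canonical pathway, had 440.5, 476 and 429 CPM in knockout against 544, 551 and 466 CPM in wild type. Knockout library 3 lay above wild-type library 4, so the genotypes overlapped, and the log2 change was −0.21 (SE 0.09, edgeR adjusted p = 0.347). Map3k7, which encodes TAK1, the kinase that activates the IkB kinases, had 116, 120 and 121.5 CPM in knockout against 129, 128 and 125 CPM in wild type. The knockout values were all lower, but the log2 change was −0.09 with an interval of −0.23 to 0.04. Chuk, the catalytic subunit that also serves the non-canonical pathway, averaged 155 ± 9.45 CPM in knockout against 166 ± 2.39 CPM in wild type (SD, n = 3 each). X-linked Ikbkg, the regulatory subunit NEMO, averaged 102 ± 3.67 CPM in knockout against 104 ± 3.89 CPM in wild type, and Tab2, which joins TAK1 to ubiquitin chains, 194 ± 5.11 CPM in knockout against 192 ± 5.03 CPM in wild type. The log2 changes of Chuk, Ikbkg and Tab2 were −0.10, −0.02 and 0.01, none with an edgeR adjusted p under 0.543.

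The adaptors and ubiquitin ligases, Traf1, Traf2, Traf5, Traf6, Birc2 and Birc3, relay signals from receptors of the TNF and Toll families. All 6 overlapped between the genotypes, with log2 changes from −0.06 to 0.04 and edgeR adjusted p of at least 0.75. Birc3, which encodes the ligase cIAP2, was the most counted of them at 403 ± 18.02 CPM in knockout against 400 ± 25.6 CPM in wild type (SD, n = 3 each). Traf1, itself a target of NF-kB, had 63.3, 64.0 and 83.6 CPM in knockout against 63.4, 63.5 and 88.6 CPM in wild type. The libraries numbered 4 were the high ones in both genotypes, and the log2 ratio of knockout to wild type within a number was −0.08 for number 4 and nearer to 0 for the others.

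Unc5cl and Lurap1 were described as activators of NF-kB in human cells. Unc5cl (GRCm38, chromosome 17, 48454901 to 48539714, plus strand) encodes a membrane protein with a death domain. It had 2.88, 2.79 and 2.43 CPM in knockout libraries 2, 3 and 4, from 127, 116 and 96 counts, and 7.13, 6.25 and 7.79 CPM in wild-type libraries 2, 3 and 4, from 315, 275 and 273 counts. The highest knockout library was below the lowest wild-type library, and the knockout mean was 38.3% of the wild-type level in the fit. The log2 change of Unc5cl was −1.38 (SE 0.16, 95% interval −1.74 to −1.03, edgeR adjusted p = 0.00736). Lurap1 (chromosome 4, 116132406 to 116151338, minus strand) encodes a leucine-rich adaptor protein. It had 3.54, 3.27 and 3.92 CPM in knockout, from 156, 136 and 155 counts, and 8.90, 6.96 and 8.85 CPM in wild type, from 393, 306 and 310 counts. In bulk RNA, fewer cells with a transcript and less of it per cell cannot be told apart. The genotypes were also apart for Lurap1, with knockout at 43.5% of wild type and a log2 change of −1.20 (SE 0.16, 95% interval −1.56 to −0.85, edgeR adjusted p = 0.0162).

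With 1 library left out in turn, the sizes of both changes held more closely than the calls. The log2 change stayed between −1.47 and −1.31 for Unc5cl and between −1.32 and −1.14 for Lurap1. The edgeR adjusted p was 0.0511 for Unc5cl without knockout library 2 and under 0.05 without any other. For Lurap1 it was 0.13 without knockout library 2, 0.0895 without knockout library 3 and 0.0961 without wild-type library 2. Lurap1 lies within the span of Pomgnt1, a glycosyltransferase gene on the opposite strand, and shares 641 exon bases (10.9% of its own) with it. Counting took no account of strand, so unspliced Pomgnt1 RNA over Lurap1 exons would be counted as Lurap1. Pomgnt1 had 38.2, 39.0 and 37.3 CPM in knockout against 52.5, 45.7 and 48.4 CPM in wild type (log2 −0.36, SE 0.08, edgeR adjusted p = 0.1404), and its part in the Lurap1 values was not tested. Unc5cl shares no exon bases with another gene. Of the tested genes within 200000 bases, 6 near Unc5cl and 9 near Lurap1, the edgeR test called none, and the log2 changes ran from −0.22 to 0.26 near Unc5cl and from −0.41 (Pik3r3) to 0.42 (Rad54l) near Lurap1.

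**Figure D3:**
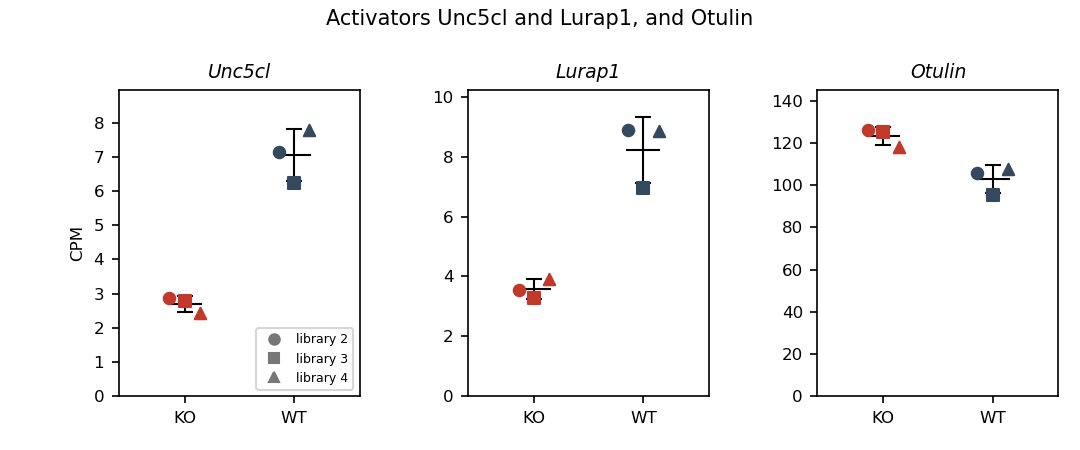
CPM of Unc5cl, Lurap1 and Otulin in each knockout (KO) and wild-type (WT) library, with the marker shape giving the library number and the bar and whiskers the mean and SD of 3 libraries. Unc5cl lies at 2.43 to 2.88 CPM in KO and 6.25 to 7.79 CPM in WT, Lurap1 at 3.27 to 3.92 CPM in KO and 6.96 to 8.90 CPM in WT, and Otulin at 118 to 126 CPM in KO and 95.2 to 108 CPM in WT.

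The brakes of the pathway are enzymes and binding proteins that remove or bind ubiquitin chains. Otulin, which cuts linear chains, had 126, 125.5 and 118 CPM in knockout against 106, 95.2 and 108 CPM in wild type. All knockout libraries were above all wild-type libraries, with a log2 change of 0.26 (SE 0.07, 95% interval 0.10 to 0.43) and an unadjusted p of 0.00569 that did not pass adjustment (edgeR adjusted p = 0.203). With a term for the libraries numbered 4 in the model, Otulin was called higher (log2 0.26, edgeR adjusted p = 0.0423), and Unc5cl and Lurap1 remained called, in a fit that called 4.4% of all genes. Tnfaip3, which encodes the ubiquitin-editing enzyme A20, had 81.3, 81.2 and 126.5 CPM in knockout against 105, 104 and 111 CPM in wild type. Its knockout libraries 2 and 3 were below all wild-type libraries and knockout library 4 was above them, and the log2 change was −0.15 (95% interval −0.50 to 0.21). Cyld, a deubiquitinase, averaged 224 ± 5.70 CPM in knockout against 207 ± 12.9 CPM in wild type, and Tnip1, a binding partner of A20, 104 ± 1.97 CPM in knockout against 101 ± 2.85 CPM in wild type (SD, n = 3 each).

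Of the target and survival genes, Ebi3, a cytokine subunit shared by IL-27 and IL-35, had 10.9, 11.4 and 10.4 CPM in knockout against 8.99, 9.55 and 8.99 CPM in wild type. The genotypes did not overlap, and the log2 change was 0.25 (SE 0.11, edgeR adjusted p = 0.370). Ebi3 shares 23.1% of its exon bases with Gm16712 on the opposite strand. Batf, a transcription factor of the AP-1 family, had 16.5, 14.01 and 17.4 CPM in knockout against 12.4, 12.4 and 15.2 CPM in wild type, with knockout library 3 inside the wild-type range and a log2 change of 0.26 (95% interval −0.03 to 0.55). Tnf had 23.1, 21.6 and 13.2 CPM in knockout against 22.4, 17.55 and 16.4 CPM in wild type, and Cflar, which encodes the caspase-8 inhibitor c-FLIP, averaged 138 ± 11.7 CPM in knockout against 132 ± 4.86 CPM in wild type (SD, n = 3 each). Ccl22, a chemokine of activated B cells and dendritic cells, had 3, 8 and 3 counts in knockout and 2, 2 and 3 counts in wild type. At 0.193 CPM or less it was near the floor of 3 counts, so a difference was not detectable at this depth.

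The libraries numbered 4 stood apart in both genotypes over all genes, and the members differed in about the same share. With genotype in the model, 14.8% of all genes differed between the libraries numbered 4 and those numbered 2 and 3 (edgeR adjusted p under 0.05, a term added after the data were seen). Of the 32 tested members, 5 were higher in the libraries numbered 4: Traf1 (log2 0.44), Nfkbia (0.25), Nfkbib (0.25), Birc2 (0.21) and Traf2 (0.21). Tnf was lower (−0.52). In the same libraries the summed level of 7 heat shock genes, a list chosen after the data were seen, was 1166 CPM in knockout library 4 and 1131 CPM in wild-type library 4. Knockout libraries 2 and 3 had 470 and 516 CPM, and wild-type libraries 2 and 3 had 409 and 432 CPM. Its part in these members was not tested.

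For Nfkbid, Nfkbiz and Tnfaip3 the genotype difference in the pair numbered 4 was set against that in libraries 2 and 3, by an interaction term chosen after this pattern was seen. The interaction was 0.75 for Nfkbid (SE 0.12, edgeR adjusted p = 0.00604), 0.74 for Nfkbiz (SE 0.12, edgeR adjusted p = 0.00549) and 0.56 for Tnfaip3 (SE 0.09, edgeR adjusted p = 0.00678), all in log2 units. Number 4 holds 1 library per genotype, so the spread behind these p-values comes from libraries 2 and 3 alone and says nothing of how libraries like number 4 vary. No member had a called interaction of the other sign, and 1.19% of all genes had one in either direction. Nfkbid in knockout library 4 was close to wild type, and its knockout libraries 2 and 3 were the ones apart, whereas Nfkbiz lay farthest from wild type in knockout library 4. In knockout library 4 the 12 immediate early genes, the first to be transcribed when a cell is stimulated and listed after the data were seen, summed to 4130 CPM, against 1833 and 1763 CPM in knockout libraries 2 and 3. In wild-type libraries 2, 3 and 4 they summed to 3737, 3322 and 3770 CPM. Knockout libraries 2 and 3 were the low ones, as they were for Nfkbid and Tnfaip3. Of the 12 genes, 5 had a called positive interaction, and their part in the members' values was not tested.

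**Figure D4:**
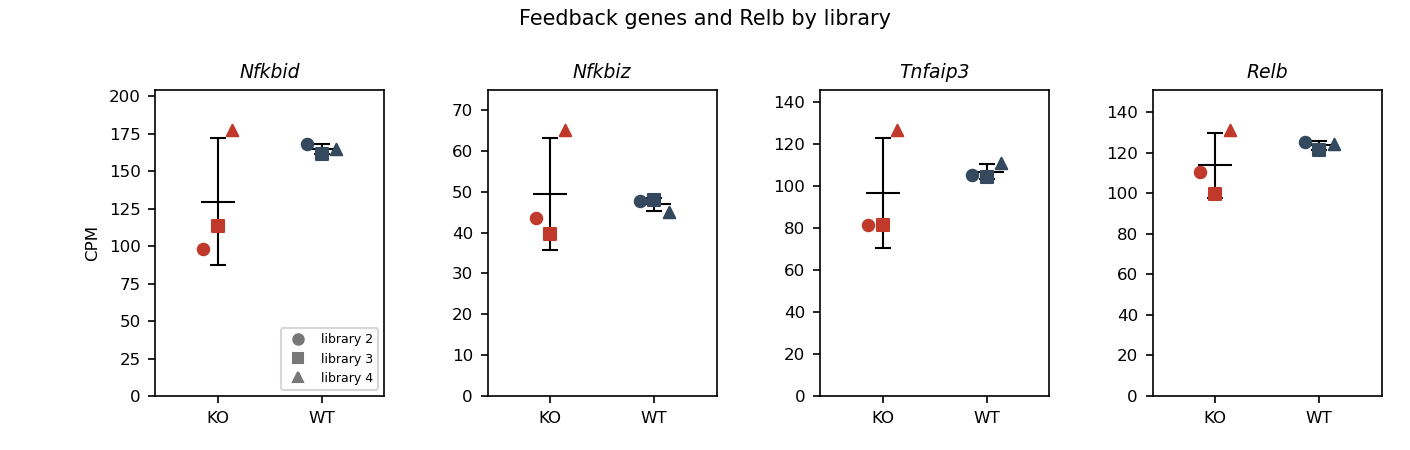
CPM of Nfkbid, Nfkbiz, Tnfaip3 and Relb in each knockout (KO) and wild-type (WT) library, with the marker shape giving the library number and the bar and whiskers the mean and SD of 3 libraries. In each gene KO libraries 2 and 3 lie below every WT library and KO library 4 lies above every WT library.

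Libraries 2 and 3 taken alone, 2 per genotype, gave a different count. There 8 members were lower in knockout (Rel, Relb, Nfkbid, Nfkbiz, Ikbkb, Unc5cl, Lurap1 and Tnfaip3), against 10.4% of all genes tested in those libraries, and Otulin was higher, against 13.6%. The log2 change in these libraries was −0.64 for Nfkbid (edgeR adjusted p = 3.93e-05), −0.36 for Tnfaip3 (adjusted p = 0.000322) and −0.23 for Relb (adjusted p = 0.012). These small p-values arose once the libraries numbered 4 were left out. In the fit of all libraries the edgeR adjusted p was 0.462 for Nfkbid, 0.714 for Tnfaip3 and 0.619 for Relb. In the pair numbered 4 the ratio of knockout to wild type had the opposite sign for Relb (0.08), Nfkbid (0.11), Nfkbiz (0.53) and Tnfaip3 (0.19) and the same sign for Rel (−0.05), Ikbkb (−0.12), Unc5cl (−1.68), Lurap1 (−1.18) and Otulin (0.14), in log2 units. Over the 32 members the ratio was negative for 18 in the pair numbered 2, for 18 in the pair numbered 3 and for 13 in the pair numbered 4. Over all 13604 genes tested it was negative for 6798, 6700 and 6809 in the pairs numbered 2, 3 and 4. The numbers are not known to mark shared animals or days.

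**Figure D5:**
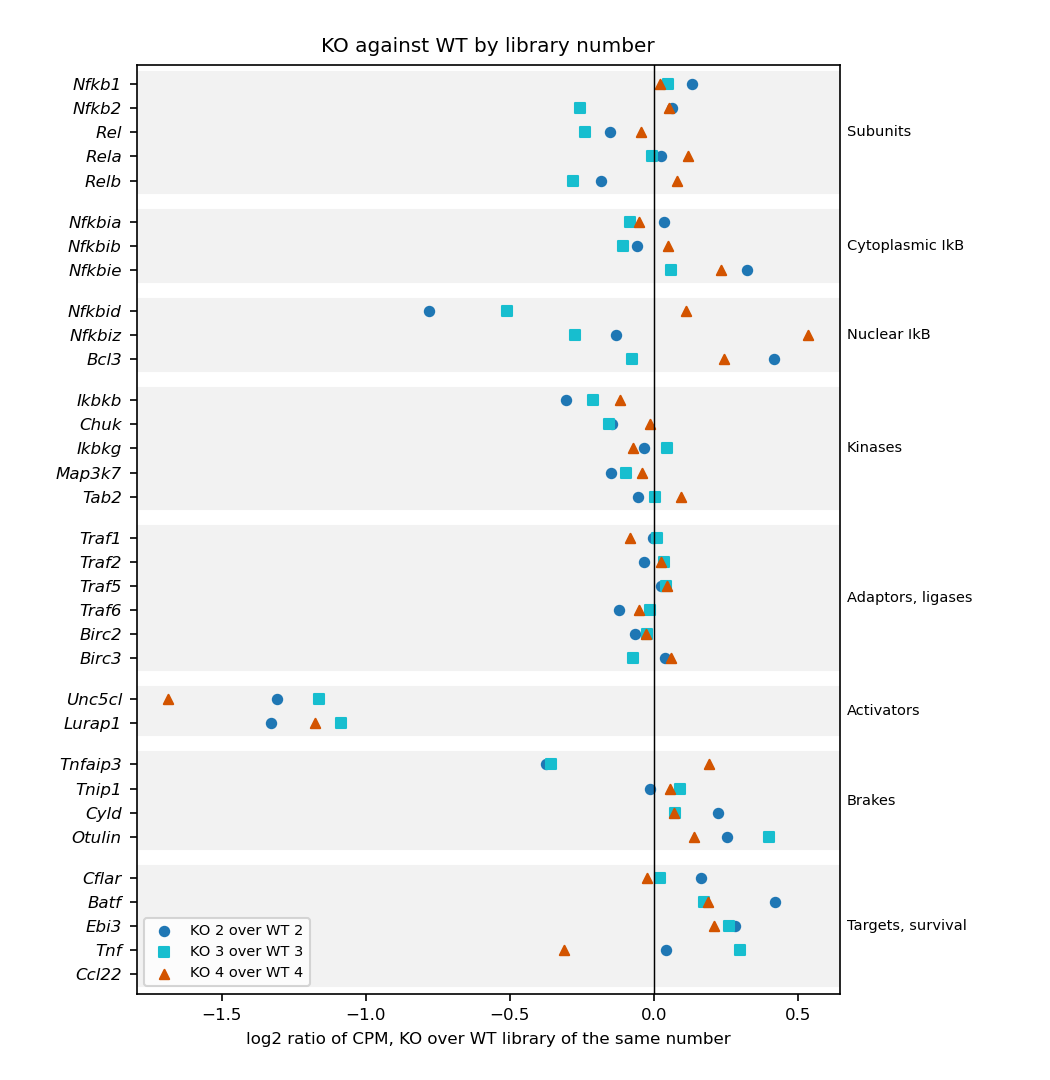
Log2 ratio of CPM in the knockout (KO) library over the wild-type (WT) library of the same number, for each member on the horizontal axis, with the marker shape and colour giving the number. Unc5cl and Lurap1 lie between −1.68 and −1.09 in all 3 pairs, and Nfkbid, Nfkbiz, Tnfaip3 and Relb lie left of 0 in pairs 2 and 3 and right of it in pair 4.

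Other genes of the pathway were followed in 4 lists of 53 genes, of which 47 were tested. Cd86, a costimulatory ligand and target of NF-kB, was the 1 gene called in edgeR, against 0.404% of all genes tested. The lists were chosen with earlier results of these data known, and Cd86 was higher in knockout. It had 56.7, 61.8 and 59.9 CPM in knockout against 28.4, 28.0 and 39.5 CPM in wild type, a log2 change of 0.90 (SE 0.13, edgeR adjusted p = 0.0309). In leave-one-out fits the adjusted p of Cd86 was between 0.000714 and 0.158, past the threshold without knockout library 4 or wild-type library 4 and not without any of the other 4 libraries. Icam1, an adhesion ligand named here after its values were seen, had 81.5, 73.1 and 82.8 CPM in knockout against 62.6, 60.6 and 60.6 CPM in wild type. The genotypes of Icam1 were apart, and it passed in DESeq2 (adjusted p = 0.00466) and with the term for the libraries numbered 4 (edgeR adjusted p = 0.0139), but not in the edgeR test without that term (log2 0.37, adjusted p = 0.113). Icam1 shares 19.3% of its exon bases with Gm20603 on the opposite strand, and the counting used no strand. The list of 23 other targets, 19 of them tested, had 12 positive and 7 negative log2 changes and a median of 0.12.

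None of the 13 tested receptors and proximal adaptors passed in edgeR, DESeq2 or limma-voom. Before adjustment, 3 of them were under 0.05 in edgeR, against 13.4% of all genes tested. The list had 9 positive and 4 negative log2 changes and a median of 0.14. The smallest p were those of Tnfrsf1b, a TNF receptor, and X-linked Tlr7, the receptor for single-stranded RNA. Tnfrsf1b was at 56.3 ± 3.91 CPM in knockout against 46.3 ± 5.63 CPM in wild type (log2 0.28, edgeR adjusted p = 0.304). Tlr7 was at 95.02 ± 5.68 CPM in knockout against 78.7 ± 11.1 CPM in wild type (log2 0.27, edgeR adjusted p = 0.317; SD, n = 3 each). The third was Traf3, an inhibitory adaptor of the non-canonical pathway named after its values were seen, which had the opposite sign. It had 217, 211 and 220 CPM in knockout against 253, 247 and 232 CPM in wild type, with no overlap (log2 −0.18, unadjusted p = 0.0272, edgeR adjusted p = 0.318). With the term for the libraries numbered 4 Tnfrsf1b was called (edgeR adjusted p = 0.0335). The 4 genes that link the antigen receptor to the IkB kinases had log2 changes of −0.11 to 0.07, with Malt1, the paracaspase, at 392.1 ± 50.0 CPM in knockout against 424 ± 38.1 CPM in wild type and Bcl10, its scaffold partner, at 117 ± 21.2 CPM in knockout against 112 ± 15.8 CPM in wild type. The 11 further kinases, ubiquitin enzymes and binding proteins had log2 changes of −0.15 to 0.09. Tnip2, a partner of A20, was at 31.2 ± 1.93 CPM in knockout against 34.5 ± 4.41 CPM in wild type, and Tax1bp1, another such partner, at 326 ± 8.30 CPM in knockout against 307 ± 15.03 CPM in wild type. Neither of these 2 lists had a call in edgeR, DESeq2 or limma-voom or an unadjusted p under 0.05, and the smallest edgeR adjusted p was 0.583.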

How the data were processed

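RNA-seq counts of 3 TET2 knockout and 3 TET2 wild-type libraries were used as the authors deposited them, as raw counts of fragments for each gene name, without normalization. Per the file headers they were made with featureCounts 1.5.1 on exons of GENCODE vM3 (GRCm38), with paired fragments and no strand option, and each gene's summed exon length came with them. STAR 2.3.0e and GRCm38.p3 are named in the submitters' processing notes. Because the library kit keeps strand and the counting did not use it, reads of overlapping genes on opposite strands cannot be told apart, and in shared exons featureCounts by default assigns them to neither gene. The table also held 6 columns of other samples, which were left out.

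Genes were filtered with filterByExpr (minimum count 10), scaled by TMM and tested in edgeR (glmQLFit with robust estimation, glmQLFTest), all 6 libraries in 1 fit with no covariate and Benjamini-Hochberg adjustment at 0.05 (edgeR 4.0.16, limma 3.58.1, DESeq2 1.42.0, R 4.3.3). The procedure was tested on simulated counts with genotype changes but no added effect of library number or sex, so that test does not cover these features of the data. An SE is the log2 change divided by the square root of F, and intervals are at 95%. Floors of 3 counts cover counting error only. Library depth is given with the results, and a single exact permutation test of 3 against 3 libraries cannot go below p = 0.1, so none is given.

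Alternatives were other scalings, filters and tests, a replicate block, a term for the libraries numbered 4, libraries 2 and 3 alone and each library left out. The term and its interaction with genotype as results of their own were added after the data were seen. The rule for named genes took every member, the called genes of each pathway list or the 2 with the smallest p, and opposite-strand genes sharing exons with a called member. Members, lists and markers were chosen with earlier results of these data known. Promoter windows came from RefSeq (GRCm38.p6). Nfkb1, Relb, Nfkbiz and Ikbkb had no entry.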

Additional observations from a re-analysis of the deposited data

Results flagged for a closer look

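For 3 members the genotype difference in the pair numbered 4 minus that in libraries 2 and 3 passed the threshold of an interaction term in the edgeR fit, chosen after the pattern was seen. It was 0.7525 for Nfkbid (adjusted p = 0.00604), 0.7352 for Nfkbiz (adjusted p = 0.00549) and 0.5569 for Tnfaip3 (adjusted p = 0.00678), in log2 units. Number 4 holds 1 library of each genotype, so libraries 2 and 3 alone supply the spread, and these p-values do not show that such a difference would recur in further libraries. The log2 ratios of knockout to wild type in the pairs numbered 2, 3 and 4 were −0.78, −0.51 and 0.11 for Nfkbid, −0.13, −0.27 and 0.53 for Nfkbiz and −0.37, −0.36 and 0.19 for Tnfaip3. Relb had an interaction of 0.31 that did not pass (SE 0.10, edgeR adjusted p = 0.139).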

How the results depend on the processing

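Against 55 genes called, 262 were called with every gene that had a count, 36 at a mean CPM of at least 1, 349 with DESeq2, 85 with a replicate block, 599 with the term for the libraries numbered 4, 3307 in libraries 2 and 3 alone, and 17 to 900 with 1 library left out. The members called were 2, also with the replicate block, but 9 in libraries 2 and 3 alone and 0 (without knockout library 2) to 4 (without knockout library 4) with 1 library left out. The members' median log2 change was −0.00645, −0.0535 under scaling to library totals only and −0.0879 to 0.0314 with 1 library left out. Of 40 genes followed, 16 changed sign under at least 1 of 15 alternatives, all with a log2 change of at most 0.08 in size. Scaling to library totals only turned Rela (−0.0029), Tab2 (−0.0335), Traf2 (−0.0358), Traf5 (−0.0085), Birc3 (−0.0398), Tnip1 (−0.0016) and Tnf (−0.0133). Libraries 2 and 3 alone turned Nfkbiz (−0.20), Ikbkg (0.0056), Tab2 (−0.0263), Traf1 (0.0050) and Birc3 (−0.0147). With 1 library left out the log2 change ran from −0.15 to 0.0364 for Nfkb2, −0.12 to 0.0628 for Nfkbia, −0.15 to 0.0494 for Nfkbib, −0.17 to 0.21 for Nfkbiz, −0.0532 to 0.0083 for Ikbkg, −0.0082 to 0.0311 for Tab2, −0.17 to 0.15 for Traf1, −0.0678 to 0.0778 for Traf2, −0.0044 to 0.0708 for Traf5, −0.12 to 0.0346 for Birc2, −0.0426 to 0.036 for Birc3, −0.0048 to 0.12 for Cflar, −0.12 to 0.25 for Tnf and −0.0868 to 0.19 for Bcl10. The causes were not tested. Same-numbered libraries deviated from their genotype means with correlations of 0.0857, 0.220 and 0.395 for numbers 2, 3 and 4. Knockout libraries 3 and 4 correlated best with the wild-type library of their own number, and knockout library 2 with wild-type library 3 (0.239). The numbers are not known to mark shared animals or days and were not taken to pair the libraries in the main fit. With 3 libraries per genotype, the widest intervals of uncalled members were −0.43 to 0.50 for Tnf and −0.78 to 0.08 for Nfkbid, so changes within them cannot be told from 0.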
